A study of Mus musculus with 12 samples.

Results

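The spliceosome genes were taken from the KEGG annotation deposited with the expression values, as every gene whose pathway entry holds the Spliceosome pathway and whose symbol does not start with Hspa. They numbered 507 of the 55885 genes listed. Of the 507, 123 were named components of the splicing machinery and 384 were other loci to which the annotation gave the same pathway, among them 322 processed pseudogenes. A gene was tested when its TPM (a transcript level divided by transcript length and scaled to the same total in every heart) was at least 1 in at least 3 hearts. The tested genes were 136 of the 507 and comprised 121 of the 123 components and 15 of the other loci, out of 13815 genes tested in all.

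RNA sequencing was performed on hearts of male mice labelled C57BL/6 (C57BL/6J in the study's methods), with 3 hearts in each of 4 groups. Wild-type mice formed the Saline and CDDP groups, and mice lacking Tmem173, the gene of STING, in every cell formed the STING-/- and STING-/-+CDDP groups. CDDP is cisplatin, a platinum drug that crosslinks DNA, and it was given at 6 mg/kg by intraperitoneal injection on days 1, 8 and 15, with hearts taken on day 22. The mice used were 8 weeks old. The labels call the mice without cisplatin untreated, while the study's methods describe saline, and how the 3 hearts per group were chosen from the mice of each group is not stated.

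The spliceosome removes introns from pre-mRNA. The U1 particle recognises the 5′ splice site, the U2 particle with its SF3A and SF3B subunits binds the branch point, and the U4/U6.U5 tri-snRNP then joins. Helicases and the Prp19 complex turn this assembly into the catalytic machine, while SR proteins and hnRNPs bind exons and introns and steer the choice of site. In heart muscle, splicing sets the isoforms of sarcomere and calcium-handling proteins.

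In wild-type hearts, the spliceosome genes tended to be higher after cisplatin. Of the 136 tested, 21 rose and 2 fell in CDDP against Saline at an adjusted p under 0.05 (limma on log2(TPM + 1), Benjamini-Hochberg over all tested genes). This was 15.4% higher and 1.47% lower, beside 8.52% higher and 10.4% lower among all genes tested (18.9% called in all). The median log2 fold change was 0.21 over the spliceosome genes and -0.003 over all genes, and 107 of the 136 values were above 0, beside 49.8% of all genes. At an unadjusted p under 0.05 there were 51, beside 33.9% of all genes. All 3 CDDP hearts lay above all 3 Saline hearts for 41 spliceosome genes (background 14.9%) and below them for 11 (background 17.1%). The number of calls rested on the hearts and on the estimate of spread. It was 8 without the third Saline heart, 9 without the first, 10 without the third CDDP heart and 28 without the second Saline heart. When only the 6 hearts compared were fitted it was 1, where 2.36% of all genes were called higher. That call was Rn7sk, an RNA that is no part of the spliceosome, and no named component was called in that fit.

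The components were also summed heart by heart. Summed over all of them, they held 0.358%, 0.385% and 0.297% of all TPM in Saline. The share was 0.405%, 0.391% and 0.473% in CDDP, whereas STING-/- had 0.315%, 0.367% and 0.323%, and STING-/-+CDDP had 0.352%, 0.343% and 0.292%. The 3 CDDP hearts were the highest of the 12, although the lowest of them exceeded the second Saline heart only narrowly. Each heart's median deviation of the components, minus the same median over all tested genes, was 0.012, -0.045 and -0.104 (log2) in Saline and 0.295, 0.127 and 0.167 in CDDP. It was -0.091, -0.082 and -0.082 in STING-/- and -0.054, -0.031 and -0.033 in STING-/-+CDDP, so that none of the 9 other hearts reached the CDDP hearts.

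**Figure D1:**
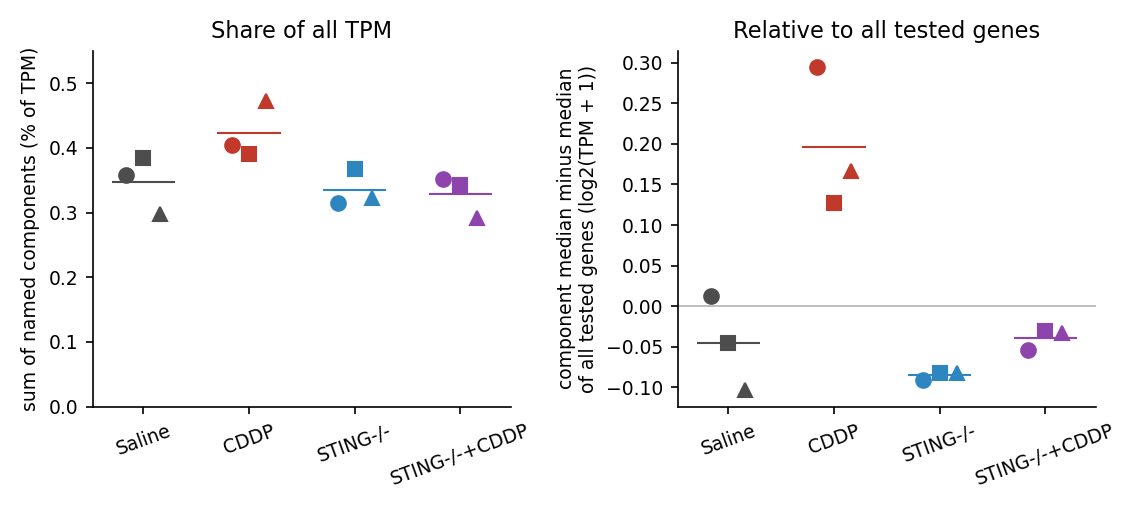
Expression of the named spliceosome components in each of the 12 hearts. Left, the summed TPM of the components as a percentage of all TPM; right, the median deviation of the tested components from their mean minus that of all tested genes, in log2(TPM + 1). Points are hearts (circle, square and triangle for replicates 1, 2 and 3), lines are group means, and the CDDP hearts, at 0.391% to 0.473% and at 0.127 to 0.295, lie above the other 9 in both panels.

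Of the 121 tested components, 29 had all 3 CDDP hearts above all 9 other hearts, which is 24% beside 8.15% of all genes tested. They included Srsf3, Srsf2 and Srsf1 among the SR proteins, Hnrnpa1, Hnrnpm and Hnrnpu among the hnRNPs, Snrnp70 and Rbm25 with U1, and Snrpa1, Sf3b2 and Dhx15 with U2. These names describe an ordering of hearts and carry no test.

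The counts by role below stand beside the same background of 8.52% of all genes higher and 10.4% lower, and with 6 to 23 genes in a role no role was tested against that background or against another role. Among the SR proteins, 2 of 11 tested members rose (18.2%) and none fell, with a median log2 fold change of 0.52. Srsf3, a small SR protein that binds exons and also acts in mRNA export, had TPM of 37.51, 29.17 and 21.11 in Saline and of 60.69, 45.67 and 62.04 in CDDP. The lowest CDDP heart thus lay above the highest Saline heart. Its log2 fold change was 0.94 ± 0.24 (SE, adjusted p = 0.0187). The call held in 9 of the 12 fits that left out 1 heart, with the highest adjusted p, 0.0669, without the third Saline heart. Srsf2, which recognises exonic enhancers, was at 46.14, 48.99 and 38.05 in Saline and at 81.44, 59.91 and 82.44 in CDDP. It rose by 0.73 ± 0.16 (adjusted p = 0.00928) and kept an adjusted p of at most 0.0358 when any single heart was left out. Exons of Srsf2 overlap those of Mettl23 and Mfsd11 on the other strand, and the strand setting of the counting is not given in the sources used here.

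The most abundant SR protein gene, Srsf5, missed the threshold. Its TPM was 90.2, 69.73 and 53.31 in Saline and 156.16, 77.21 and 178.91 in CDDP, so the second CDDP heart fell within the Saline range (log2 fold change 0.89 ± 0.30, adjusted p = 0.0605). Srsf1, Srsf10 and Tra2b had log2 fold changes of 0.55, 0.52 and 0.55 with adjusted p of 0.0612, 0.0538 and 0.058. Srsf9 had the lowest value of the group at -0.56 (adjusted p = 0.103).

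The hnRNP group gave 2 rises among 9 tested members (22.2%). Hnrnpa1, an abundant protein that binds introns and exonic silencers, was at 86.19, 110.29 and 68.69 TPM in Saline and at 140.04, 153.92 and 165.41 in CDDP. The groups did not overlap, the log2 fold change was 0.81 ± 0.16 and the adjusted p was 0.00672, and the call held whichever single heart was left out. Rbmx, an RNA-binding protein of the hnRNP G family, had TPM of 11.06, 11.23 and 7.82 in Saline and of 17.37, 14.82 and 21.66 in CDDP (log2 fold change 0.78 ± 0.18, adjusted p = 0.0115). Hnrnpk, the highest of the group in TPM, ranged from 111.06 to 149.52 in Saline and from 124.81 to 165.62 in CDDP and did not pass the test (log2 fold change 0.09 ± 0.16, adjusted p = 0.727).

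The promoters of Srsf3, Srsf2 and Hnrnpa1 are printed because these SR and hnRNP genes rose together, with no overlap between the groups. The sequences are RefSeq windows of 300 bases on GRCm38.p6, from 250 before to 50 after the annotated start, written 5′ to 3′ along the gene. Srsf3 is at chr17:29032410-29032709 (plus strand), Srsf2 at chr11:116853045-116853344 (minus strand) and Hnrnpa1 at chr15:103240147-103240446 (plus strand). Capitals mark matches, on either strand, to any of 8 motifs. Those searched were the AP-1 motif of Fos and Jun proteins, spelled TGANTCA, the cyclic AMP response element, spelled TGACGTCA, the E-box with the letters CACGTG, and the motif of ETS factors with the letters CCGGAAG. The others were the CCAAT box, the GC box, which Sp proteins bind, with the letters GGGCGG, the box for the TATA-binding protein with the letters TATAAA, and the motif of the factor YY1, spelled AAGATGGC. Matches of the GC box may overlap each other.
Srsf3: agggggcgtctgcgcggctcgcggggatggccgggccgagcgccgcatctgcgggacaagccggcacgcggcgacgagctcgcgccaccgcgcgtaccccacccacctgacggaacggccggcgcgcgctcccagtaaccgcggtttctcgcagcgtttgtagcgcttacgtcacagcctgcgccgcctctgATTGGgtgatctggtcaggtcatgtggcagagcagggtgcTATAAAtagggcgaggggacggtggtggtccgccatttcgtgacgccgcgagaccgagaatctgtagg
Srsf2: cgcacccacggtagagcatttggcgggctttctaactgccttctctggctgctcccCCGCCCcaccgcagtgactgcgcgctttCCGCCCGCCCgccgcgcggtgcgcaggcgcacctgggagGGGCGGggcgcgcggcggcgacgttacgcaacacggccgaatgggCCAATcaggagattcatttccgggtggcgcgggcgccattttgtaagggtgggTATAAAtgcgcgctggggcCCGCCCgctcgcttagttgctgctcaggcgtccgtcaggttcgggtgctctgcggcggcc
Hnrnpa1: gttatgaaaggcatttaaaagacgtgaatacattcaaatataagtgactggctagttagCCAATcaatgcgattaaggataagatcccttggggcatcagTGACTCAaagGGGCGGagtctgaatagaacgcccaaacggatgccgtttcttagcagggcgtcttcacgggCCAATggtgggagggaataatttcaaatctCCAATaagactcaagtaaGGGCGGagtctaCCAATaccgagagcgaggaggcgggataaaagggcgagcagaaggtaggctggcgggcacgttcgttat

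Each of the 3 windows holds the CCAAT box, which 37.4% of the 32851 RefSeq windows hold. TATA (13.6% of windows) was found in Srsf3 and Srsf2, and the GC box (35.7%) in Srsf2 and Hnrnpa1. Hnrnpa1 also held 1 AP-1 match, which 7.81% of windows hold. No motif was counted over the whole set, because 95 of the 121 components (78.5%) matched a window by symbol. The matches describe letters in these windows only.

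**Figure D2:**
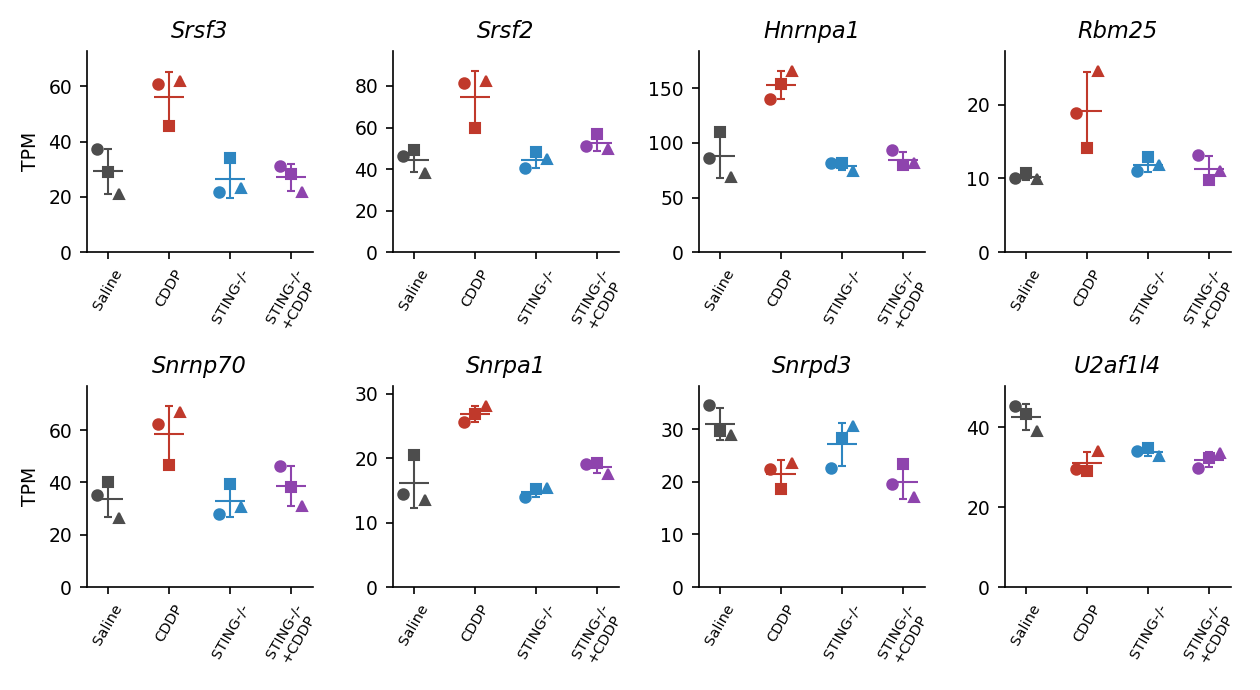
TPM of 8 spliceosome components in the 4 groups. Points are hearts (circle, square and triangle for replicates 1, 2 and 3), with the mean and the SD over 3 hearts; the first 6 were higher in CDDP than in each of the other 3 groups without overlap, U2af1l4 was lower in CDDP than in Saline, and Snrpd3, which did not pass the test, was lower in both groups given cisplatin than in Saline.

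Of the 8 tested genes of the U1 particle and its partners, 3 rose (37.5%) and none fell (median log2 fold change 0.34). Snrnp70, the U1-70K protein of the particle, was at 35.02, 39.97 and 26.25 TPM in Saline and at 62.28, 46.66 and 66.8 in CDDP (log2 fold change 0.78 ± 0.21, adjusted p = 0.0263), and the call held in 8 of the 12 fits that left out 1 heart. Rbm25, a U1-associated regulator of alternative splicing, went from 10.1, 10.71 and 9.94 to 18.92, 14.14 and 24.55, with a log2 fold change of 0.81 ± 0.19 (adjusted p = 0.0128). The other proteins of the U1 particle itself, Snrpa and Snrpc, had values of -0.14 and 0.03 and adjusted p of 0.661 and 0.911. Ddx5, an RNA helicase and the highest of the group at 122.55 to 168.16 TPM in Saline and 187.42 to 240.9 in CDDP, did not overlap between the groups but missed the threshold (0.49 ± 0.20, adjusted p = 0.113).

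The U2 group, which has the most genes, had 5 rises (21.7%) and 1 fall (4.35%) among 23 tested genes, with 22 of the 23 values above 0. Dhx15, the helicase that takes apart spent spliceosomes, had TPM of 25.96, 32.32 and 21.66 in Saline and 42.08, 39.41 and 60.01 in CDDP (log2 fold change 0.79 ± 0.21, adjusted p = 0.0229). Snrpa1, the A′ protein of the U2 particle, was at 14.44, 20.54 and 13.45 against 25.53, 26.88 and 28.11 (0.72 ± 0.16, adjusted p = 0.00963). Sf3b2, a subunit of SF3B at the branch point, was at 53.49, 63.98 and 46.75 against 72.16, 90.96 and 95.02 (0.65 ± 0.15, adjusted p = 0.0134). None of these had overlapping groups. Ddx46, the helicase that prepares the U2 particle, and Cherp were the other rises, at 0.56 and 0.49 (adjusted p = 0.0342 and 0.0426). With 1 heart left out, Sf3b2 kept its call in 10 of 12 fits, Dhx15 in 9, Ddx46 in 7 and Cherp in 2. Sf3b1, the subunit that holds the branch point, was at 0.52 with an adjusted p of 0.104.

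U2af1l4 was the component that fell. It encodes a shorter relative of U2AF35, the protein that reads the 3′ splice site. TPM was 45.48, 43.29 and 39.16 in Saline and 29.55, 29.18 and 34.17 in CDDP, and the groups did not overlap (log2 fold change -0.45 ± 0.12, adjusted p = 0.0234). U2af1, the U2AF35 gene itself, had a log2 fold change of 0.47 in the other direction and an adjusted p of 0.0601. U2af1l4 shares exons with Gm49396 on the same strand and with Psenen on the other, so its reads are not unique to it. The call held in 8 of the 12 fits that left out 1 heart, and without the first Saline heart the adjusted p was 0.0978.

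Among the 18 genes of the U4/U6, U5 and tri-snRNP particles, 5 rose (27.8%), with log2 fold changes from 0.49 to 0.71 and calls that held in 7 to 9 of the 12 fits without 1 heart. They were Sart1 (0.71, adjusted p = 0.0153), Prpf6 (0.68, 0.0198) and Prpf3 (0.67, 0.0193), which hold the tri-snRNP together, the helicase Ddx23 (0.56, 0.0327) and the GTPase Eftud2 of the U5 particle (0.49, 0.0317). Prpf8, the scaffold of the active site, was at 0.11 with an adjusted p of 0.696, and the U5 helicase Snrnp200 at 0.54 with an adjusted p of 0.0564. Ppih, a cyclophilin of the tri-snRNP, had the lowest value at -0.49 (adjusted p = 0.0657). Zmat2, the member with the highest TPM in this group, had a value of 0.35 ± 0.15 (adjusted p = 0.125).

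The Prp19 complex and its relatives had 2 rises among 19 genes (10.5%), close to the share of all genes. Syf2 was at 52.12, 68.78 and 60.98 TPM in Saline and at 97.99, 90.24 and 105.88 in CDDP (0.69 ± 0.15, adjusted p = 0.0101), and Snw1, a splicing factor that is also a transcriptional coregulator, had a value of 0.50 (adjusted p = 0.0393). The call of Syf2 held in all 12 fits that left out 1 heart and that of Snw1 in 3. Prpf19, the ubiquitin ligase that names the complex, ranged from 101.79 to 136.07 in Saline and from 71.06 to 156.3 in CDDP (log2 fold change -0.11 ± 0.23, adjusted p = 0.768).

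No member was called in 4 groups of components. These were the Sm ring proteins, which coat most spliceosomal snRNAs (0 of 7, median log2 fold change 0.02), the LSm ring of U6 (0 of 7, 0.15), the helicases and factors of the catalytic steps (0 of 6, 0.25) and the cap-binding, exon junction and TREX export proteins (0 of 13, 0.07). At an unadjusted p under 0.05 they held 1, 2, 1 and 2 genes, where all genes had 33.9%. In each of these groups the share at an unadjusted p under 0.05 was below that of all genes. The groups are small, and whether 0 calls fell short of the 18.9% called among all genes was not tested. Snrpd3, of the Sm ring, had its 3 CDDP hearts at 22.36, 18.69 and 23.65 TPM, all below the Saline hearts at 34.58, 29.77 and 28.83 (log2 fold change -0.51 ± 0.17, adjusted p = 0.0517). Snrpe, the most abundant Sm gene, overlapped between the groups (0.17 ± 0.19, adjusted p = 0.561), as did Lsm4 (0.30 ± 0.14, 0.149), Prpf18 (0.32 ± 0.16, 0.178) and the export helicase Ddx39b (0.06 ± 0.18, 0.847). The difference between these groups of genes and the others was not tested.

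**Figure D3:**
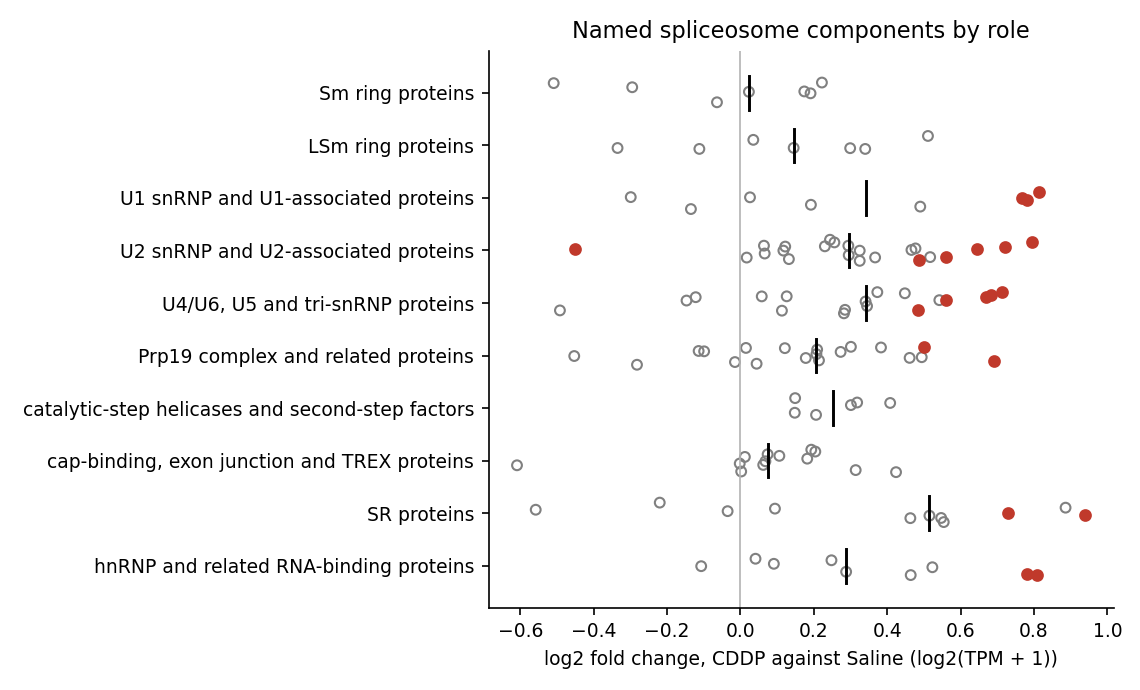
Log2 fold change, CDDP against Saline, of the 121 tested components by role. Each circle is a gene, filled circles passed an adjusted p under 0.05 and black bars are medians; filled circles appear in 6 of the 10 roles, with U2af1l4 at -0.45 the only one on the left of 0.

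Gene length moved with these values. The 19 components called higher had a median length of 3054 bases, beside 2088 for the 101 not called, and of the 19 components under 1000 bases none was called higher. Over the 121 components the correlation of log2 length with the log2 fold change was r = 0.26 and rho = 0.25, across genes, which are not independent replicates. Among all genes the share called higher was 10.6% under 1000 bases and 6.09% over 4000 bases, the opposite order. With the trend on length removed in each heart, an alternative chosen after the data were seen, 49 spliceosome genes rose and 6 fell, beside 15% of all genes higher. The part of length in the result was not further tested.

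Of the 15 tested loci that are not named components, 3 were called. Rn7sk, the 7SK RNA that holds back the elongation factor P-TEFb and is no part of the spliceosome, was the largest rise under the pathway entry. Its TPM was 34.86, 14.12 and 23.6 in Saline, 138.74, 59.68 and 157.57 in CDDP, 50.4, 75.96 and 20.28 in STING-/- and 68.02, 43.38 and 84.73 in STING-/-+CDDP. CDDP lay above Saline in every heart (log2 fold change 2.22 ± 0.50, adjusted p = 0.0118) but overlapped both STING-/- groups. Rn7sk has no poly(A) tail, and how RNA was selected for the libraries is not given in the sources used here. Rp9 was lower (-0.67 ± 0.21, adjusted p = 0.0439) although its groups overlapped, with 42.08 to 58.87 TPM in Saline and 24.81 to 42.6 in CDDP, and the call held in 2 of the 12 fits that left out 1 heart.

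The third, Gm5641, is a processed copy of Hnrnpa3 on chromosome 3 (GRCm38, chr3:54481438-54482925, plus strand). All of its 1488 bases match an Hnrnpa3 transcript at 100% identity, so reads from these bases cannot be told apart, whichever locus the authors' counting gave them to. Another copy, Gm10052, matches Hnrnpa1 at 100% over its 960 bases. The 90 coding bases shown start at a codon, align between the 2 parents without gaps and are shared by each copy with its parent. They are the first such stretch and show how far the parents can be separated there. Capitals mark the 28 positions at which Hnrnpa1 (coding bases 7 to 96, the same in Gm10052) and Hnrnpa3 (coding bases 4 to 93, the same in Gm5641) differ.
Hnrnpa1: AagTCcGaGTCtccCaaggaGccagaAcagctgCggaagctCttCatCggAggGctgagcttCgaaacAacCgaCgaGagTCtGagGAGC
Hnrnpa3: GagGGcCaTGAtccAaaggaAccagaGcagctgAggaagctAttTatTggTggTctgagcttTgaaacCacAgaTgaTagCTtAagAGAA

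Copies took uneven parts of their parents' level. Gm5641 held 31.2% to 52.7% of the summed TPM of the pair with Hnrnpa3, Gm8186 held 51.4% to 74.9% of that with the Sm gene Snrpg, and Gm10146 held 35.5% to 53.6% of that with Lsm7, while Gm10052 held at most 4.56% of that with Hnrnpa1. As deposited, Gm5641 was called higher in CDDP (42.67, 38.78 and 31.49 TPM against 81.89, 51.33 and 69.47, log2 fold change 0.81 ± 0.22, adjusted p = 0.0238), whereas Hnrnpa3 was not (0.29 ± 0.15, adjusted p = 0.212). With 7 tested copies added to their closest component, an alternative chosen after the data were seen, the joint level of Hnrnpa3, Gm5641 and Gm11847 was 110.42, 101.36 and 78.01 in Saline and 156.33, 115.12 and 146.73 in CDDP. The joint level was higher in CDDP by 0.53 ± 0.17 (adjusted p = 0.0473). The calls then numbered 23 as before, 21 higher and 2 lower, and Hnrnpa1 with Gm10052 stayed higher (0.78 ± 0.16, adjusted p = 0.00703). Pooling changed the direction of Snrpg. Alone it ranged from 0.049 to 0.411 when 1 heart was left out, and with Gm8186 it was at -0.37 ± 0.19 (adjusted p = 0.19). The median of the Sm ring given above uses Snrpg as deposited. Lsm7, Snrpf and Snu13 with their copies were at -0.257, -0.215 and 0.034 (adjusted p = 0.358, 0.5 and 0.898).

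Cisplatin and STING deficiency together were compared with cisplatin alone. Most spliceosome genes had lower values in STING-/-+CDDP than in CDDP, although few passed the test: 18 of the 136 log2 fold changes were above 0 and 118 below, beside 39.6% of all genes above 0, with a median of -0.34 beside -0.10 over all genes tested. All 3 STING-/-+CDDP hearts lay below all 3 CDDP hearts for 62 genes (background 15.6%) and above them for 3 (background 7.12%). Only 2 genes passed the test, both lower, which is 1.47% beside 0.854% of all genes lower (1.22% called). At an unadjusted p under 0.05 there were 58, beside 19.8% of all genes. This comparison shares its CDDP hearts with that against Saline, so that the values of both stand side by side and are not independent.

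The genes called lower were Hnrnpa1 and Gm5641. Hnrnpa1 was at 93.09, 79.43 and 81.74 TPM in STING-/-+CDDP, all below the CDDP hearts (log2 fold change -0.85 ± 0.16, adjusted p = 0.0347). In STING-/- hearts it was at 81.39, 81.69 and 74.63, within the range of Saline. Gm5641 was at 31.27, 31.42 and 21.7 (-1.23 ± 0.22, adjusted p = 0.0272), and with the copies pooled, Hnrnpa3 was lower too (log2 fold change -0.81 ± 0.17, adjusted p = 0.0451). Both calls were lost when only the 6 hearts compared were fitted, and leaving out 1 heart gave 8 calls without the second heart of CDDP but 0 without the first, without the third or without any STING-/-+CDDP heart. Of the 12 such fits, Hnrnpa1 was called in 4 and Gm5641 in 7.

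Other members lay close to the threshold. Srsf3 was at 31.25, 28.16 and 21.84 TPM in STING-/-+CDDP (log2 fold change -1.03 ± 0.24, adjusted p = 0.0571). For Rbmx the value was -0.73 ± 0.18 (adjusted p = 0.0629), for Rbm25 -0.69 ± 0.19 (0.0867), for Dhx15 -0.75 ± 0.21 (0.0917) and for Eftud2 -0.50 ± 0.14 (0.0895). By role, the medians ran from -0.20 for the Prp19 complex, through -0.38 for U2, -0.49 for the SR proteins and -0.51 for the hnRNPs, to -0.59 for U1. As deposited, all 7 Sm genes were below 0 (median -0.35), with no call, while Snrpf pooled with its copy Gm13092 was at 0.226 (adjusted p = 0.578).

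Scaling changed how many passed. With hearts scaled by the median of ratios, 12 spliceosome genes were lower in STING-/-+CDDP than in CDDP and none higher, beside 2.82% of all genes lower, and 44 rose and 5 fell in CDDP against Saline, where 13.5% of all genes were called higher. Mitochondrially encoded genes held 18.8% to 27.6% of all TPM across the hearts, and with them left out of the total the calls were 5 lower in the first comparison, beside 1.38% of all genes, and 30 higher and 5 lower in the second, beside 9.99% and 13% of all genes.

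**Figure D4:**
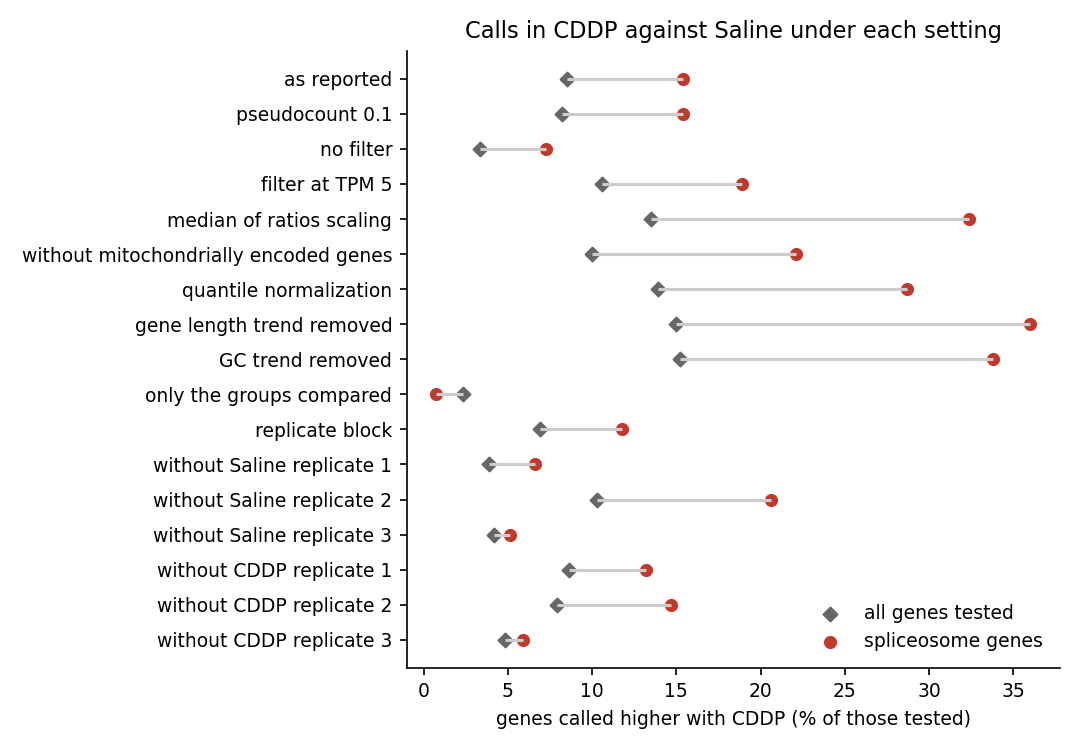
Share of genes called higher in CDDP than in Saline under each setting, for the spliceosome genes tested (circles) and all genes tested (diamonds), in % of those tested. The spliceosome share lies above that of all genes in every setting shown except the fit of only the groups compared, at 0.735% beside 2.36%, and is nearest to it without the third Saline heart, at 5.15% beside 4.16%, and without the third CDDP heart, at 5.88% beside 4.84%.

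In STING-/- mice, no rise with cisplatin passed the test. No spliceosome gene was called in STING-/-+CDDP against STING-/- (limma), beside 0.934% of all genes, and 10 of 136 had an unadjusted p under 0.05, beside 13.5% of all genes. The median log2 fold change was -0.04, where all genes had -0.11, and 55 values were above 0, beside 35.2% of all genes. The groups did not overlap for 8 genes that were higher (background 7.28%) and 11 that were lower (background 16.9%). Snrnp70 was at 27.83, 39.55 and 30.7 TPM in STING-/- and at 46.33, 38.25 and 31.11 in STING-/-+CDDP (0.23, adjusted p = 0.691). Srsf3 was at 21.8, 33.92 and 23.29 in STING-/-, and its change was 0.05 (adjusted p = 0.954). Syf2 had the highest value among the components, at 0.36 (adjusted p = 0.326).

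The smallest p-values belonged to other genes. Gm13092 (2.66 ± 0.93, adjusted p = 0.225) and Gm10052 (0.77 ± 0.26, 0.208) are copies with uneven or low levels, the first listed at 0 in all but 3 hearts and the second at most 3.28 TPM. Snrpd3 was at 22.63, 28.4 and 30.54 in STING-/- and at 19.57, 23.48 and 17.05 in STING-/-+CDDP (-0.42 ± 0.17, adjusted p = 0.285), so that its values leaned the same way in both genotypes. Gm45140, which shares exons with Isy1, was at -0.79 ± 0.29 (0.248), and Slirp, a mitochondrial RNA-binding protein whose exons overlap Snw1, at -0.44 ± 0.16 (0.254).

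**Figure D5:**
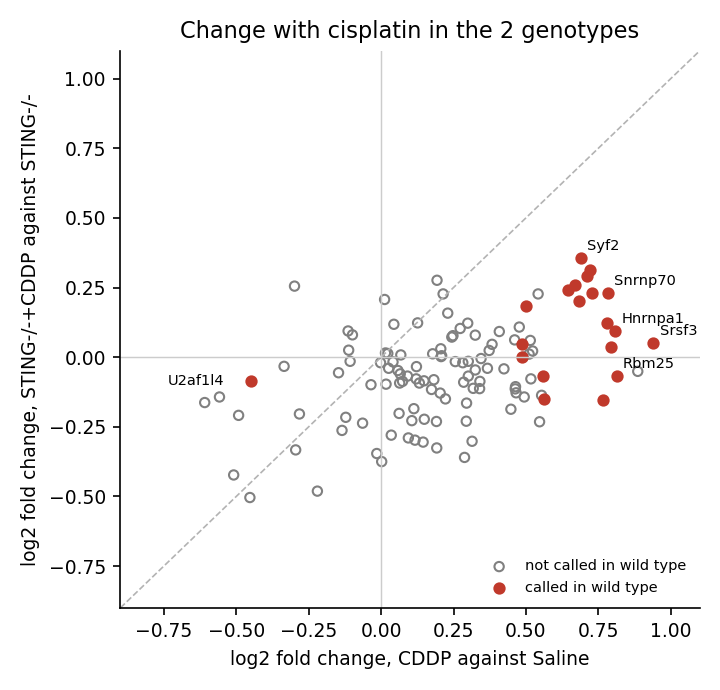
Log2 fold change with cisplatin of the 121 tested components in wild-type hearts (x axis, CDDP against Saline) and in STING-/- hearts (y axis, STING-/-+CDDP against STING-/-). Filled circles passed the test in wild type, so their x values were selected; the dashed line marks equal change, and the filled circles on the right, including Hnrnpa1 (0.81 and 0.09) and Srsf3 (0.94 and 0.05), lie below it.

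The difference between the genotypes was tested by the interaction. No spliceosome gene passed (limma), beside 0.00724% of all genes, and 22 of 136 had an unadjusted p under 0.05, beside 11.7% of all genes. Of the 136 values, 25 were above 0, beside 40.2% of all genes, and 111 below, with a median of -0.31 beside -0.10 over all genes. The smallest p-values were those of Gm5641 (-1.07 ± 0.31, adjusted p = 0.321), Rbm25 (-0.88 ± 0.26, 0.321), Hnrnpa1 (-0.72 ± 0.23, 0.333), Ddx46 (-0.71 ± 0.23, 0.335) and Tra2b (-0.78 ± 0.26, 0.343). Whether the rise of any single gene differed between the genotypes was therefore not shown. Over the 121 components, the changes with cisplatin in the 2 genotypes, which share no hearts, had r = 0.45 and rho = 0.39 across genes.

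Without cisplatin, the genotypes were close in the spliceosome genes. No spliceosome gene was called in STING-/- against Saline (limma, beside 0.0724% of all genes), and 5 had an unadjusted p under 0.05, beside 3.69% of all genes. The median was -0.03, with 0.002 over all genes, and 54 values were above 0, beside 50.3% of all genes. All STING-/- hearts lay above all Saline hearts for 2 genes (background 2.76%) and below them for 10 (background 4.88%). The lowest p-values were again those of copies and overlapping loci: Gm10052 (-1.46 ± 0.26, adjusted p = 0.1), Gm8186 (-0.98 ± 0.25, 0.473) and Gm49396 (0.51 ± 0.19, 1), with Rp9 (-0.56, 1) and the component U2af1l4. U2af1l4 had 34.01, 34.73 and 32.83 TPM in STING-/-, all below Saline (-0.32 ± 0.12, adjusted p = 1), and 29.9, 32.26 and 33.51 in STING-/-+CDDP.

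Related genes outside the pathway entry were counted from lists chosen, like the members, with earlier results of these data known. In CDDP against Saline, where 8.52% of all genes were higher and 10.4% lower, 5 of 22 further splicing factors rose (22.7%) and none fell, among them Luc7l3 (0.96, adjusted p = 0.0214) and Luc7l2 (0.67, 0.0239), relatives of a yeast U1 protein, and Sf1 (0.71, 0.0344), which first binds the branch point. The minor spliceosome, which removes a rare class of introns, had 3 rises among 11 (27.3%). Snrnp48 was at 4.29, 7.73 and 5.74 TPM in Saline and at 11.49, 15.81 and 21.66 in CDDP (1.31, adjusted p = 0.00445). Rnpc3 was at 4.81, 4.62 and 4.06 against 9.25, 11.54 and 12.97 (1.15, 0.00159), and Snrnp35 had a value of 0.89 (0.00334). For these 3 proteins of the U11/U12 particle the groups did not overlap.

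Among genes that assemble snRNPs, 5 of 15 rose (33.3%, beside 8.52% of all genes) and none fell, with Gemin2 (0.77, adjusted p = 0.0283), Smn1 (0.69, 0.0201), Ddx20 (0.65, 0.0123) and the methyltransferase Prmt5 (0.63, 0.0173) as the largest. Of 12 kinases that phosphorylate splicing factors, 3 rose (25%), Clk1 (0.74, 0.0376), Prpf4b (0.68, 0.0338) and Clk4 (0.63, 0.0256). The muscle kinase Srpk3 fell, from 15.17, 13.45 and 10.64 TPM in Saline to 2.55, 6.77 and 5.06 in CDDP (-1.34, adjusted p = 0.00497). Of 17 regulators of muscle and alternative splicing, 3 rose (17.6% of few genes): Celf2 (1.97, 0.00153), Mbnl1 (0.94, 0.0215) and Tial1 (0.47, 0.0334). None of 14 genes of mRNA surveillance and decay was called, with 5 at an unadjusted p under 0.05, about the 33.9% of all genes. No gene of these lists was called in STING-/-+CDDP against CDDP, where Rnpc3 (-0.77, adjusted p = 0.052) came nearest.

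Transcript classes limit what a gene's TPM can say here. Of the 121 components, 47 have an annotated transcript subject to nonsense-mediated decay and 91 one that retains an intron (GENCODE M21), forms through which many splicing factors regulate their own mRNA. The deposited values are sums per gene and do not separate them from coding transcripts. Exons of 42 components overlap another gene, among them Rbm25, Snrpa1, Snrpd3, Hnrnpk and Sf3b2.

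The makeup of the hearts also moved between groups. Sting1 (Tmem173) was at 12.28, 6.59 and 6.5 TPM in Saline, 22.11, 5.62 and 8.81 in CDDP, 3.82, 5.96 and 2.87 in STING-/- and 4.26, 4.67 and 3.37 in STING-/-+CDDP, so that each STING-/- group lay below its wild-type counterpart in every heart but not at 0, with adjusted p of 1 without and 0.147 with cisplatin. The deleted part is not given in the sources used here, so this is only a partial check of the labels. In CDDP against Saline all 5 tested erythroid markers (summed TPM 4146.08 to 9316.89 in Saline, 41.95 to 1271.15 in CDDP), 4 of 5 macrophage markers and 3 of 4 endothelial markers fell, beside 10.4% of all genes. Of 4 fibroblast markers 2 fell, but another was at 0.73, and their sum was 644.32 to 1603.27 in Saline and 954.27 to 2034.97 in CDDP. Without cisplatin, all 5 erythroid markers were lower in every STING-/- heart than in Saline (summed TPM 263.67 to 1465.45), with none called. In STING-/-+CDDP they summed to 81.93 to 311.09. Of 7 cardiomyocyte markers, Actc1 fell (-3.55, adjusted p = 0.00181), from 7823.55, 5558.9 and 5035.66 TPM in Saline to 186.81, 681.49 and 1067.39 in CDDP, and Tnnt2 rose (0.56, adjusted p = 0.0137). Together the cardiomyocyte markers summed to 32065.05 to 42758.13 in Saline and 22701.67 to 35966.19 in CDDP. Neutrophil markers summed to 1105.77, 43.57 and 26.91 in the 3 CDDP hearts and to at most 84.08 outside the CDDP group, in a STING-/- heart. In this sum only the first CDDP heart lay above all hearts outside its group. Against Saline, the 4 tested neutrophil markers had log2 fold changes of 2.205 to 3.058 in CDDP, with none called. For 2 of them all CDDP hearts lay above all Saline hearts (background 14.9%). Atrial markers varied within groups, up to 38938.93 in the second Saline heart and 14621.47 in the third CDDP heart. Fewer cells of a type and less RNA per cell cannot be told apart in such tissue, and the part of these shifts in the spliceosome values was not tested.

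Members that were not tested were low or absent. The components Rbm8a2 and Rbmxl2 reached at most 0.24 TPM. Of the 369 other untested loci, 260 were listed at 0 in all 12 hearts, 361 never reached 1 and the highest value was 6.36, for Gm5269 in 1 STING-/-+CDDP heart. Beside them, 22 of the 507 members carry the name of HSPA1 heat shock proteins in the annotation although their symbols do not start with Hspa.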

How the data were processed

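RNA was extracted from 12 hearts, 3 per group, with TRIzol, and sequenced by a company. The authors deposited gene-level TPM, rounded to 2 decimals; the submitters' processing notes name fastp, HISAT, RSEM and GRCm38.p5, with no versions. TPM columns hold no depth, so no count test, interval or detection limit was computed, and precision rests on 3 hearts per group. 4 deposited columns of group means were not used. Groups came from the genotype and treatment labels.

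Genes reaching a TPM of 1 in 3 or more hearts were fitted on the log2(TPM + 1) scale, all 12 hearts together, with a coefficient per group (limma 3.58.1, R 4.3.3, eBayes with trend, two-sided, Benjamini-Hochberg over all tested genes, threshold 0.05). Since the pseudocount is 1, fold changes of low genes are understated. An exact permutation test of 3 against 3 hearts cannot go below p = 0.10 and was not used. P-values set a difference between groups against the spread between hearts within groups, pooled over the 4 groups and moderated across genes. The procedure was tested on simulated data. Replicates were compared, and no 2 hearts held the same values (correlation at most 0.9774).

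Named genes were the largest called changes whose groups did not overlap (10 per direction in CDDP against Saline, 5 in the other comparisons, or else the 5 smallest p-values), the member of highest mean TPM in each role, and at most 4 called genes per further list. Genes filtered out were to be named with their range, but only the components and the highest locus are. Other genes are named after their values were seen: those near the threshold, particle partners (such as Snrpa, Prpf8 and U2af1) and parents of copies. Members, roles and lists were chosen with earlier results of these data known. Copies were aligned with blastn 2.17.0 to GENCODE M21 (GRCm38), which held 506 of the 507 identifiers. Figures used matplotlib 3.10.9 in Python 3.11.15. The alternatives are another pseudocount, 2 other filters, 3 other scalings, fits of the compared groups only, a replicate block and leaving out each heart, and, added after the data were seen, removal of trends with gene length and GC content, a minimum change and pooled copies. The values of 1 gene are not reported here.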

Additional observations from a re-analysis of the deposited data

How the results depend on the processing

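TPM hold no read depth, and each group had 3 hearts, so small changes of low genes could not be resolved. For CDDP against Saline, the 23 calls became 49 with median of ratios scaling, 35 without mitochondrially encoded genes, 44 with quantile normalization and 1 with only the groups compared, and 55 and 51 with the trend on gene length or on GC content removed. Over all genes the 2610 calls became 3824, 3168, 3904, 822, 4055 and 4046 in the same order. For STING-/-+CDDP against CDDP, the 2 calls became 0 without a filter on low values, 5 with a filter at TPM 5, 12, 5 and 9 under the same 3 scalings, 0 with only the groups compared, and 15 and 15 with the length or GC trend removed, while the 168 calls over all genes became 12, 246, 668, 312, 671, 38, 830 and 642. Without a filter the median log2 fold change was -0.096 in that comparison and -0.08 for the interaction, over 247 genes of which many are near 0. Leaving out each heart gave 8 to 28 calls in CDDP against Saline (median 0.104 to 0.298), 0 to 8 in STING-/-+CDDP against CDDP (-0.379 to -0.251), 0 to 1 in STING-/-+CDDP against STING-/- (-0.096 to 0.05), and 0 in STING-/- against Saline (-0.122 to 0.042) and for the interaction (-0.379 to -0.186).

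Same-numbered hearts are different animals and their deviations correlated from -0.333 to 0.261. With the replicate number as a block, the calls were 17 in CDDP against Saline and 1 in STING-/-+CDDP against CDDP. Of the genes named, Ddx39b turned to -0.002 with quantile normalization and ranged from -0.172 (without the third Saline heart) to 0.187 when 1 heart was left out. Hnrnpk ranged from -0.033 to 0.187, below 0 without the third CDDP heart and, at -0.026, without the third Saline heart, and Prpf19 ranged from -0.379 to 0.184, above 0 without the first CDDP heart. No call rested on these genes. Where no value is given for a cause, the cause was not tested.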
